A study of Mus musculus with 13 samples.

Results

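The genes described here are 9 tight junction genes of the blood-testis barrier: the claudins *Cldn11*, *Cldn3*, *Cldn5* and *Cldn1*, occludin (*Ocln*), the junctional adhesion molecules *F11r* and *Jam3*, and the scaffolds *Tjp1* and *Tjp3*. They were taken by exact gene symbol, without use of their values, and are 9 of 27111 named genes in the count table of the series. All mice were wild-type adult males (C57Bl/6J, given as Bl6 wt in the labels, 3 to 5 months old). The 7 MSUS males had been separated from their mothers for 3 h per day, unpredictably, from postnatal day 1 to 14, and the mothers were meanwhile exposed to a cold swim or to restraint. The 6 control males had not. Sertoli cells were enriched from each testis preparation by sorting diploid, large cells with a high MitoTracker signal, and total RNA was sequenced from 1 library per male. The sort used no Sertoli-specific marker or transgene. In the paper's counts most but not all cells of this fraction were vimentin-positive, so other testicular cells can remain in the libraries.

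The blood-testis barrier is formed by tight junctions between neighbouring Sertoli cells near the base of the seminiferous epithelium. It closes off the compartment in which meiosis and spermatid maturation take place from blood and lymph. In such a junction, claudins build the strands that seal the space between cells, occludin lies within the strands, junctional adhesion molecules (JAMs) connect the cells through immunoglobulin domains, and zonula occludens (ZO) scaffolds tie the strands to actin. *Cldn11* is the claudin best known from Sertoli cells, and male mice without it are infertile.

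Per library, the estimated counts summed to between 13087203 and 18649945 for control males and to between 12701776 and 15693938 for MSUS males. Of the 78 pairs of libraries, none agreed within sampling noise, so that each was treated as a separate replicate. The 6 Sertoli markers (*Amhr2*, *Clu*, *Ctsl*, *Rhox5*, *Sox9*, *Wt1*) had a mean log2 CPM (CPM, counts scaled to a common library size) of 9.88 ± 0.09 for the 6 controls (± SD) and 9.86 ± 0.08 for the 7 MSUS males (exact permutation test, two-sided, p = 0.666). RNA of elongated spermatids was also present, with 4 of 4 markers tested and a mean of 7.90 ± 0.23 in controls and 8.09 ± 0.46 in MSUS (exact permutation p = 0.377). The paper regards such transcripts, *Prm2* among them, as likely remnants of spermatids engulfed by Sertoli cells, which was not tested here. The 7 markers of endothelial cells, whose junctions hold *Cldn5*, differed widely in level. *Pecam1* had 4.74 ± 0.23 and *Cdh5* 4.62 ± 0.25 log2 CPM in controls. The others were lower, with *Vwf* at 2.47, *Kdr* at 0.96, *Tek* at 0.52, *Flt1* at -0.21 and *Egfl7* at -1.31. All 7 averaged 1.68 ± 0.29 in controls and 1.93 ± 0.15 in MSUS (exact permutation p = 0.0822). In such sorted bulk samples, fewer cells of a type and less RNA per cell cannot be told apart.

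The members fell into 6 genes with ample counts and 3 genes near 0. Division by the length of the merged exons allowed levels to be compared between genes. In controls, *Cldn11* had 286 ± 22.5 CPM per kb (SD, n = 6), a level higher than that of 99.4% of the 13377 tested genes with a known length. *F11r*, which encodes JAM-A, followed at 66.5 ± 5.21 CPM per kb and *Cldn3*, a sealing claudin, at 54.1 ± 8.66. *Tjp1*, the gene of ZO-1, had 43.4 ± 2.55, *Jam3*, the gene of JAM-C, 35.3 ± 4.09, and *Ocln* 24.7 ± 1.76 CPM per kb. The level of *Cldn11* was thus 11.6 times that of *Ocln*, which itself exceeded 86.1% of the genes.

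**Figure D1:**
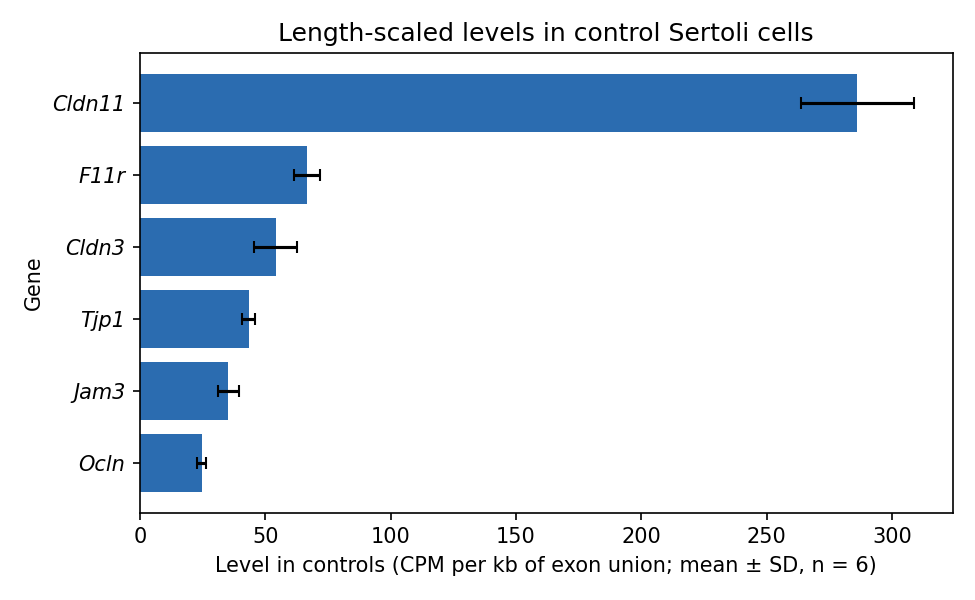
Length-scaled levels of the 6 detected members in control Sertoli cells, as CPM per kb of merged exon length (bars, mean; whiskers, SD; n = 6 mice). *Cldn11* stands at 286 CPM per kb and the other 5 genes lie between 24.7 and 66.5.

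Each step in this order was seen in 6 of 6 control mice. *Cldn11* exceeded *F11r* by 2.11 ± 0.05 on the log2 scale of CPM per kb (SD, n = 6 controls). The next steps were smaller: *F11r* exceeded *Cldn3* by 0.31 ± 0.17, *Cldn3* exceeded *Tjp1* by 0.30 ± 0.25, *Tjp1* exceeded *Jam3* by 0.31 ± 0.19 and *Jam3* exceeded *Ocln* by 0.51 ± 0.09. The steps were read from the ranking of the same 6 mice and were not tested. In the narrowest case *Cldn3* lay only 0.01 above *Tjp1* in a control mouse. The place of *Jam3* depended on its length: with the longest annotated transcript (1942 bases) in place of the merged exons (3200 bases), *Tjp1* minus *Jam3* was -0.27 on the log2 scale, and *Jam3* moved above *Cldn3* as well.

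The other claudins of the set were at or near 0. *Cldn5*, the claudin of endothelial junctions, had 11 counts over all 13 libraries (5 in controls, 6 in MSUS), no more than 4 in any of them and 0 in 6. *Cldn1*, an epithelial claudin, had 9 counts (8 in controls, 1 in MSUS) and 0 in 9 libraries. *Tjp3*, which encodes the scaffold ZO-3, had 26 counts (10 in controls, 16 in MSUS) and at most 6 per library. In controls these sums correspond to 0.0692 CPM for *Cldn5* (exact Poisson 95% interval 0.0225 to 0.162), 0.111 for *Cldn1* (0.0478 to 0.218) and 0.139 for *Tjp3* (0.0664 to 0.255), where the intervals cover counting error only. A library with 0 counts allows a level of up to 0.209 to 0.307 CPM, depending on its depth. None of the 3 genes passed the filter on low counts. In a fit without that filter, 0 of the 9 members had p under 0.05 in limma voom, beside 1182 of all 23680 genes.

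The promoters of 3 claudins are shown here because the genes belong to the same family and differ widely in level, from *Cldn11* (286 CPM per kb in controls) and *Cldn3* (54.1) to *Cldn5* (at most 0.114 by the upper limit of its Poisson interval). Each is the 250 bases before the start of the gene in RefSeq, assembly GRCm38.p6, read 5′ to 3′ on the strand of the gene. Capitals mark a GC box, searched as GGGCGG or, on the other strand, CCGCCC. *Cldn11* lies at chr3:31149920-31164324, *Cldn3* at chr5:134986214-134987472 and *Cldn5* at chr16:18776847-18778262, all 3 on the plus strand, and the windows are chr3:31149670-31149919, chr5:134985964-134986213 and chr16:18776597-18776846.
Cldn11: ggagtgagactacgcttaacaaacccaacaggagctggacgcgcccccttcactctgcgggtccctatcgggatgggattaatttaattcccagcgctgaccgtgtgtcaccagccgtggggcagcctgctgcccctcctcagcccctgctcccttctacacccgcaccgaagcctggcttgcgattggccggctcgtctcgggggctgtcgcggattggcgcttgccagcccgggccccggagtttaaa
Cldn3: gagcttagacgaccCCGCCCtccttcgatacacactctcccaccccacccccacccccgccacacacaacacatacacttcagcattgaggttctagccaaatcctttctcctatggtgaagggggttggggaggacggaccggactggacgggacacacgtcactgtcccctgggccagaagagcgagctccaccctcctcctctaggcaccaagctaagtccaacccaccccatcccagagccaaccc
Cldn5: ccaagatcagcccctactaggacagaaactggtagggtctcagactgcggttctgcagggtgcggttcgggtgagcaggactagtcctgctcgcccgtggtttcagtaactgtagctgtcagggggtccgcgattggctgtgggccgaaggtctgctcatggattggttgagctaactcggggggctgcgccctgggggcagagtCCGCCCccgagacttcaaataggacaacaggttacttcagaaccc

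The *Cldn11* window held 19 CpG dinucleotides, more than 80.4% of the windows of 27025 genes, whose median was 6. *Cldn3* held 9 CpG and *Cldn5* 12, more than 59.3% and 66.2% of windows. A GC box was found in 0 places in *Cldn11* and in 1 place each in *Cldn3* and *Cldn5*, beside 32.9% of all windows with at least 1. On neither strand did these 3 windows hold AGAACA, a core of androgen receptor sites found in 16.2% of all windows, or the SOX core AACAAT, found in 9.6%. These letters were searched in 8 of the 9 members, and *Jam3* had no entry. The window of *Cldn1*, with 9 counts in all libraries, held 14 CpG. Whether the level of a claudin goes with its CpG count was not tested.

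Between the groups, no difference was detected for any of the 6 tested members. In limma voom 0 members had p under 0.05, beside 5.42% of all 14421 genes tested (3.02% higher and 2.40% lower in MSUS), and adjusted p-values ranged from 0.879 to 0.987. Adjusted over all genes, limma voom called 0 genes at 0.05 (781 at an unadjusted p under 0.05), edgeR 0 (793) and DESeq2 0 (835). Among the 6 members, 4 were higher and 2 lower in MSUS, with a median log2 fold change of 0.01, beside 0.00 for all genes, of which 49.5% were higher. The p-values measure the spread between these 13 males and treat them as independent, while which of them were littermates was not used here.

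**Figure D2:**
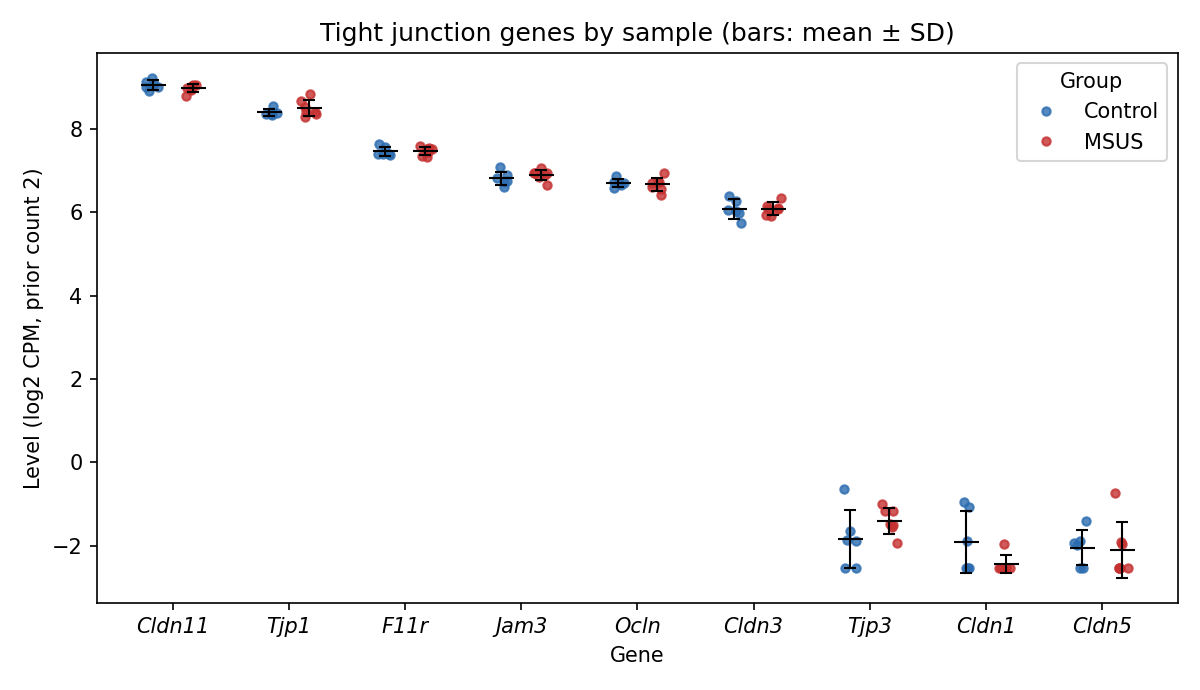
Levels of the 9 members in each library, in TMM-normalized log2 CPM (prior count, 2; points, 1 male each; lines, group means; 6 controls and 7 MSUS). Control and MSUS points overlap for every member, from *Cldn11* near 9.0 to *Cldn5* and *Cldn1*, many of whose libraries lie at the floor of -2.53 that a count of 0 gives.

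Among the claudins, *Cldn11* had 8.90, 9.05 and 9.22 log2 CPM as the lowest, median and highest control and 8.79, 8.97 and 9.06 in MSUS. The groups overlapped, and 5 of 7 MSUS males lay below the control mean of 9.06 ± 0.11 (SD, n = 6), with an MSUS mean of 8.98 ± 0.10 (n = 7). The log2 fold change was -0.08 with SE 0.06 and a 95% interval of -0.21 to 0.04 (limma voom, adjusted p = 0.879). An exact permutation test of the 2 group means gave p = 0.171.

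*Cldn3* had 5.73, 6.05 and 6.40 log2 CPM in controls and 5.90, 6.09 and 6.35 in MSUS, so that all MSUS values lay within the control range. Its log2 fold change of 0.01 (SE 0.10, 95% interval -0.19 to 0.21, limma voom adjusted p = 0.987) was far below the spread between mice. Of the 6 tested members, *Cldn3* varied most among the controls, with an SD of 0.23, larger than that of 93.9% of the 1998 genes within 0.5 log2 CPM of its level. The SD of *Jam3*, 0.16, exceeded 81.1% of its like, and that of *Tjp1*, 0.08, exceeded 30.0%.

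*Ocln*, the transmembrane partner of the claudin strands, had 6.58, 6.70 and 6.88 log2 CPM in controls and 6.41, 6.70 and 6.94 in MSUS. The MSUS range enclosed the control range, and the log2 fold change was -0.03 (SE 0.08, 95% interval -0.19 to 0.13, limma voom adjusted p = 0.965).

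Of the adhesion molecules, *F11r* had 7.38, 7.41 and 7.65 log2 CPM in controls and 7.32, 7.51 and 7.60 in MSUS, with equal means of 7.47. Its log2 fold change was 0.01 (SE 0.06, 95% interval -0.12 to 0.14, limma voom adjusted p = 0.986). *Jam3* had 6.60, 6.78 and 7.08 in controls and 6.65, 6.94 and 7.05 in MSUS. All MSUS values of *Jam3* lay within the control range, although 6 of 7 were above the control mean of 6.81, and the log2 fold change was 0.08 (SE 0.08, 95% interval -0.08 to 0.25, limma voom adjusted p = 0.902). The counts of *F11r* were not whole numbers in 12 of 13 libraries (tolerance 0.01), which means that the authors' estimation divided some of its reads between features.

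*Tjp1*, whose product ZO-1 links claudins and JAMs to the cytoskeleton, had 8.33, 8.38 and 8.56 log2 CPM in controls. The MSUS values were 8.30, 8.41 and 8.84, a wider range than that of the controls, which it enclosed. The log2 fold change was 0.09 (SE 0.08, 95% interval -0.07 to 0.26, limma voom adjusted p = 0.894; exact permutation p = 0.320). For the 6 members together, the 95% intervals ran from a decrease of 13.5% at the lowest limit of any gene to an increase of 19.6% at the highest. The interval of each gene bounds the change that its own data leave room for.

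**Figure D3:**
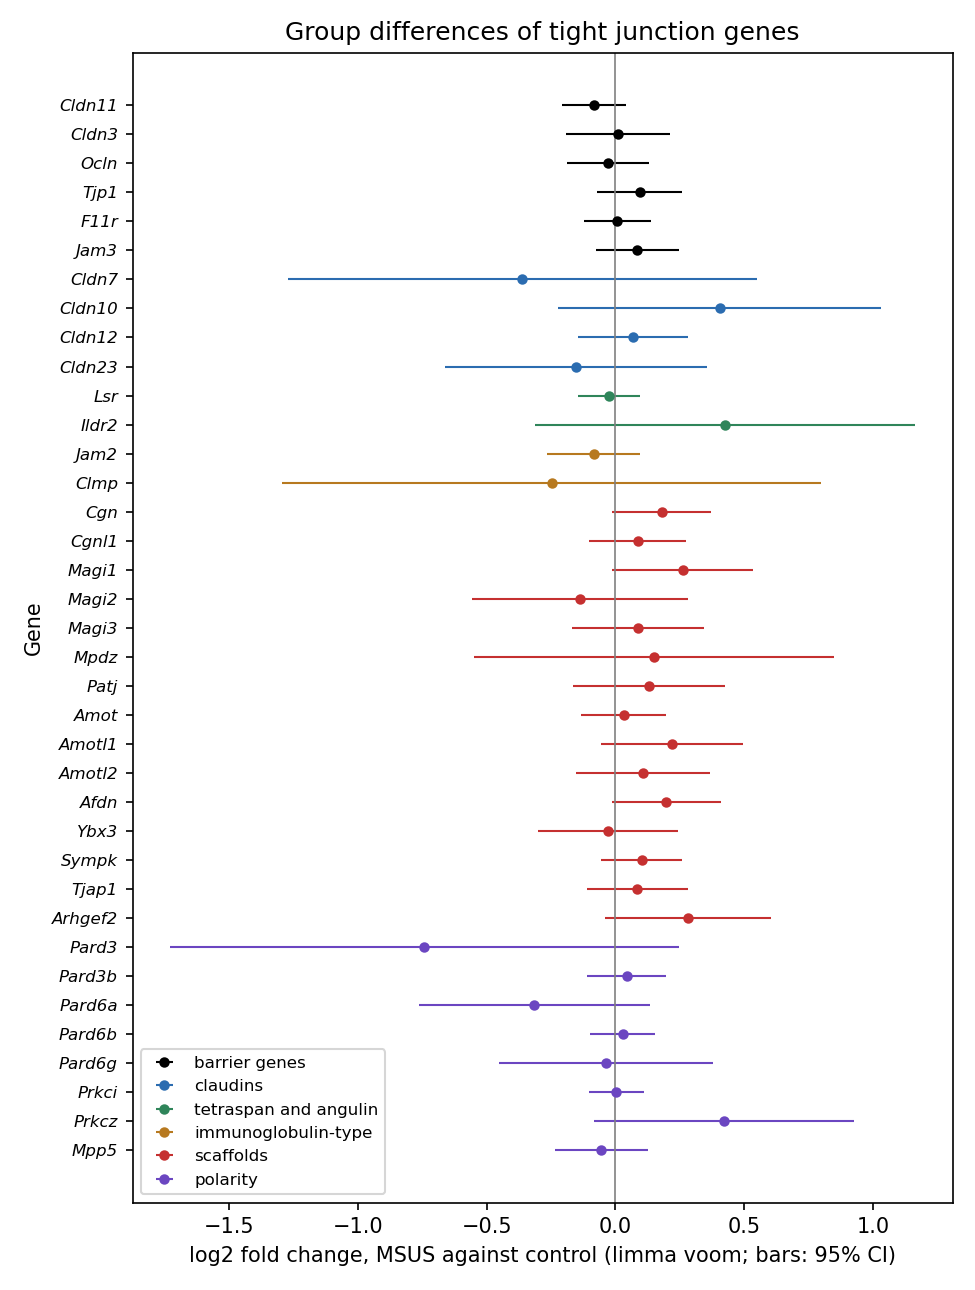
Log2 fold changes of MSUS against control with 95% intervals (limma voom) for the 6 tested members and 31 tested genes of a wider tight junction list, by role. The members lie between -0.08 and 0.09 with intervals that include 0, as do those of the wider list shown, and 13 of 15 scaffolds shown lie to the right of 0.

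For the 3 rare members, log2 CPM was also compared by permutation, and no difference was detected. The exact permutation p was 0.956 for *Cldn5*, 0.119 for *Cldn1* and 0.156 for *Tjp3*, and the lowest p adjusted over all 9 members was 0.512. Control replicate 12 held the highest *Tjp3* count of 6. Without it, the MSUS mean of *Tjp3* lay 0.68 above that of controls (exact permutation p = 0.00884, not adjusted). This was the lowest p of any member in the repeats without 1 library. For *Cldn1*, Control replicates 10, 12 and 22 each held 0 counts, so that leaving out any 1 of them is the same calculation. It gave a difference of -0.66 (exact permutation p = 0.0455, not adjusted). The results for both genes rest on a few counts per library.

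Some members varied together among the mice. Deviations from the group means had a positive r in 14 of 15 pairs of tested members. By Pearson's r, 2 pairs passed adjustment over the 15 pairs. For *Cldn11* alone, r was positive with 5213 of the 9897 genes with a mean of at least 3 log2 CPM. *Cldn3* and *F11r* passed by Spearman's rho (0.79, permutation test, adjusted p = 0.029). They did not pass by Pearson's r (0.70, permutation test, adjusted p = 0.0598). *Cldn11* and *F11r* were the closest, with Pearson's r of 0.89 (permutation test within groups, adjusted p = 0.0003) and Spearman's rho of 0.91 (permutation test, adjusted p = 0.0009) over 13 males. Without the 2 males farthest from the median of *Cldn11*, r was 0.80. *F11r* and *Jam3* had r of 0.76 (permutation test, adjusted p = 0.0368) and rho of 0.67 (permutation test, adjusted p = 0.0588), and r of 0.66 without the 2 farthest males. This pair did not pass with library size alone as the scaling (r = 0.60, permutation test, adjusted p = 0.148) or in 7 of 13 repeats without 1 library. *Cldn11* and *Jam3* had r of 0.68, which did not pass (permutation test, adjusted p = 0.071). Without the 2 farthest males, r of this pair was 0.31. *Cldn11* and *Tjp1* were the pair with the lowest r, -0.08. The samples share 1 scaling factor per library, which enters every gene of a pair.

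The level of *Cldn11* also went with the Sertoli marker score over the males, with r of 0.88 (permutation test, p adjusted over 12 relations = 0.00324) and rho of 0.84 (adjusted p = 0.0139). Without the 2 males farthest from the median of the score, r was 0.87. For *F11r* and the same score, r was 0.72 (permutation test, adjusted p = 0.0651), rho 0.76 (adjusted p = 0.035) and r without the 2 farthest males 0.64. Against the elongated spermatid score, *Ocln* had r of -0.67 (permutation test, adjusted p = 0.119) and rho of -0.58 (adjusted p = 0.164), and *Jam3* had r of -0.50 (adjusted p = 0.153) and rho of -0.66 (adjusted p = 0.035). The part of the cell makeup of each library in these relations was not tested.

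Over 9897 genes with a mean of at least 3 log2 CPM, the deviations most like those of *Cldn11* over 13 libraries were those of *Bak1* (r = 0.92), *Nans* (0.90), *1500009L16Rik* (0.89) and *F11r* (0.89), among the 5 in the highest places. *F11r* was in place 5 of all these genes, while *Jam3* was in place 315, *Cldn3* in place 942, *Ocln* in place 3071 and *Tjp1* in place 5949. The order was by Pearson's r and is a description.

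Ratios between members within a library need no scaling between libraries and were examined after the levels had been seen. *Cldn11* exceeded *F11r* by 1.60 ± 0.05 in log2 CPM, not divided by length, in controls (range 1.52 to 1.68) and by 1.50 ± 0.05 in MSUS (range 1.46 to 1.59). All 7 MSUS males lay below the control mean and 4 lay below every control, a difference of -0.09 (exact permutation p = 0.00874, adjusted over 15 ratios 0.0656). *Cldn11* against *Jam3* gave 2.25 ± 0.14 in controls (range 2.11 to 2.49) and 2.08 ± 0.07 in MSUS (range 1.99 to 2.15). Again 7 of 7 MSUS males lay below the control mean and 3 below every control, a difference of -0.17 (exact permutation p = 0.00816, adjusted over 15 ratios 0.0656). Neither ratio passed the adjustment, and the ranges of the groups overlapped in both.

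**Figure D4:**
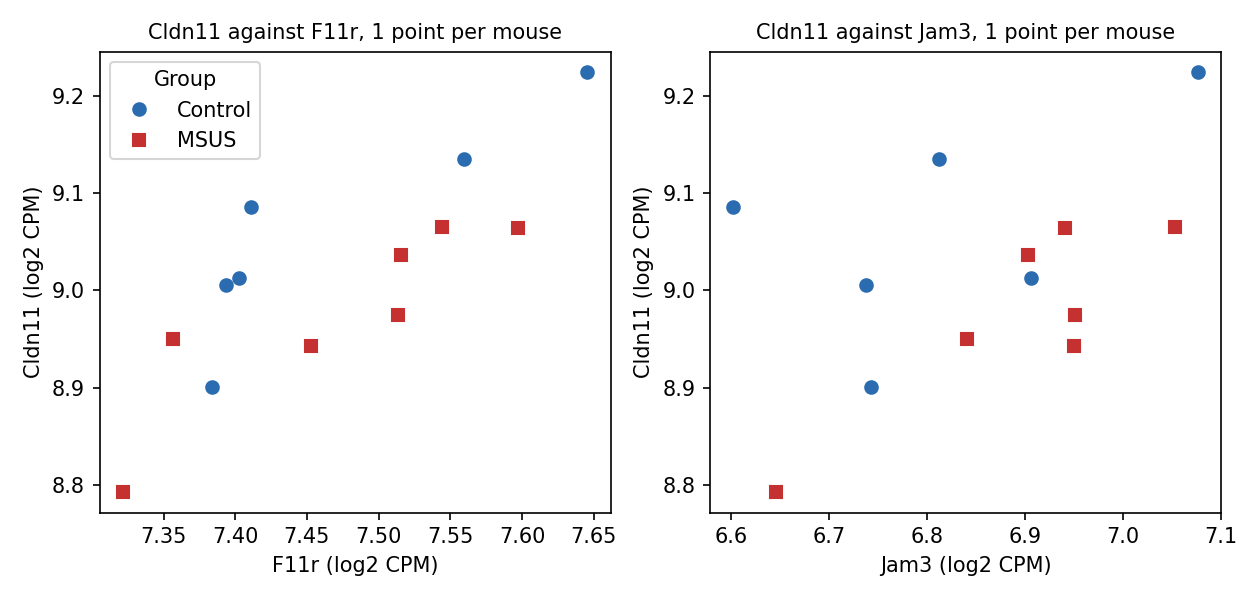
*Cldn11* against *F11r* and *Jam3* within each library, both axes in log2 CPM (points, 1 male each; 6 controls and 7 MSUS). *Cldn11* and *F11r* rise together over the males, with r of 0.89 for deviations from the group means. For *Cldn11* and *Jam3*, r is 0.68 and did not pass adjustment (permutation test, adjusted p = 0.071). All MSUS males have a ratio of *Cldn11* to *F11r* or *Jam3* below the control mean, by 0.09 and 0.17 on the log2 scale on average.

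Expressed as a share of the summed CPM per kb of the 9 members, *Cldn11* made up 56.1 ± 1.71% in controls (SD, n = 6) and 54.1 ± 1.47% in MSUS (n = 7; exact permutation p = 0.0338, adjusted over 9 members 0.152). The share of *Jam3* was 6.91 ± 0.53% and 7.48 ± 0.29% (exact permutation p = 0.0309, adjusted over 9 members 0.152). Neither share passed the adjustment.

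A wider list of 54 tight junction genes was described by role, and 31 of them passed the filter on low counts. Of the 20 other claudins, 4 were tested and 2 of these were higher in MSUS. *Cldn12* was the most abundant at 1.79 ± 0.11 log2 CPM per kb in controls (log2 fold change 0.07, SE 0.10, adjusted p = 0.941), followed by *Cldn23* at 1.20 ± 0.44 (log2 fold change -0.15, SE 0.24, adjusted p = 0.943, both limma voom). The 15 claudins of the table that were not tested had at most 12 counts in any library. *Cldn11* and *Cldn3*, at 8.16 and 5.74 log2 CPM per kb, were therefore the only claudins of these lists above 2 on this scale.

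Junctions where 3 cells meet are sealed by angulins and tricellulin. *Lsr*, the gene of angulin-1, had 7.20 ± 0.10 log2 CPM per kb in controls and so lay between *Cldn11* and *F11r* (log2 fold change -0.02, SE 0.06, limma voom adjusted p = 0.961). Its relative *Ildr2* had -1.64 ± 0.52 (log2 fold change 0.42, SE 0.35, adjusted p = 0.894). *Marveld2*, which encodes tricellulin, had 92 counts over all 13 libraries and was not tested. Among the immunoglobulin-type proteins, *Jam2*, the gene of JAM-B, the partner of JAM-C, had 4.25 ± 0.14 log2 CPM per kb (log2 fold change -0.08, SE 0.09, limma voom adjusted p = 0.915), and *Clmp* had -2.53 ± 0.54 (log2 fold change -0.25, SE 0.50, adjusted p = 0.951).

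Scaffolds bind the inner face of the junction, and all 15 reported here passed the filter. *Cgn*, the gene of cingulin, which joins ZO scaffolds to actomyosin, was the most abundant scaffold at 7.07 ± 0.13 log2 CPM per kb in controls (log2 fold change 0.18, SE 0.09, 95% interval -0.01 to 0.37, limma voom adjusted p = 0.878). *Ybx3*, whose product binds ZO-1, had 5.66 ± 0.21 (log2 fold change -0.03, SE 0.13, adjusted p = 0.979). The log2 fold changes were above 0 in 13 of these 15 scaffolds with a median of 0.11, beside 49.5% above 0 and a median of 0.00 among all genes. The list was not tested as a whole. The nuclear RNA *Malat1* had a log2 fold change of 0.70 (limma voom adjusted p = 0.878). With its level as a covariate the scaffold median was 0.01, with 11 of 15 above 0. Of the scaffolds, 0 then had p under 0.05, beside 401 of all 14421 genes, against 781 without a covariate. As *Malat1* was on average higher in MSUS, its part and that of group cannot be told apart here. The cause was not tested. With the elongated spermatid score as a covariate instead, the scaffold median was 0.15, with 13 of 15 above 0. Here 4 scaffolds had p under 0.05 (*Cgn*, *Magi1*, *Amotl2* and *Afdn*), none of them after adjustment over all genes. Calls also rose over all genes in this fit, to 1203 of 14421.

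Polarity proteins place the junctions along the cell. Of 9 genes, 8 were tested, with 4 higher and 4 lower in MSUS, a median log2 fold change of -0.02 and 0 with p under 0.05. *Pard6b* had 5.04 ± 0.08 log2 CPM per kb in controls (log2 fold change 0.03, SE 0.06, limma voom adjusted p = 0.955) and *Prkci*, the atypical protein kinase C bound by it, 5.00 ± 0.08 (log2 fold change 0.00, SE 0.05, adjusted p = 0.990).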

How the data were processed

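RNA of Sertoli cells enriched by FACS from 6 control and 7 MSUS males was sequenced with a stranded total RNA kit. Per the labels, reads were trimmed with Trim Galore 0.6.5 and quantified with Salmon 1.1.0, and the study's methods name GENCODE vM23 transcripts. The authors deposited estimated counts per gene, not normalized. How transcripts were summed to genes and whether strand was used are not given in the sources used here. Features without a gene name (27170 of 54281 in the table, with 20.7% to 26.7% of the counts of a library) entered neither library sizes nor tests. Columns that matched no sample numbered 0.

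Counts were rounded to whole numbers, filtered with filterByExpr, normalized by TMM (edgeR 4.0.16) and fitted with voom in limma 3.58.1 (R 4.3.3) with group as the only term and Benjamini-Hochberg adjustment over 14421 genes. TMM and voom follow the study's methods, whereas the filter, the rounding and the single term were chosen here. Levels are given as log2 CPM (prior count, 2). Single values were compared by two-sided exact permutation tests over samples, which can give p down to 0.000583. Correlations used 100000 permutations within groups, and their repeats under other settings used fewer. Gene lengths and coordinates came from GENCODE vM21 (GRCm38), which matched 84.7% of the named genes by symbol. Named counts per library ranged from 9776929 to 14383458, and spread between mice rather than counting error limits the precision for the 6 detected members. An antisense gene overlaps *Cldn3* and another overlaps *Jam3* in the annotation, and the reads of such pairs may not have been told apart. *Cldn25* was not analysed here. A scaffold of the wider list and a gene most like *Cldn11* are not reported here, and counts over the wider list leave the former out.

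Members and gene lists were chosen with earlier results of these data known. Named genes were all members, per role of the wider list the 2 most abundant per kb in controls and any gene with p under 0.05, and the 5 genes most like *Cldn11*. The same was planned for *Cldn5*, which did not pass the filter. Fits were also run with edgeR's quasi-likelihood test, DESeq2 1.42.0, sample quality weights, other scalings, other filters, covariates and without each library. Ratios and relations to marker scores were added after the data had been seen.

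Other marker lists, as mean log2 CPM in controls and MSUS, were peritubular myoid cells (1.29, 1.95), Leydig cells (2.63, 2.81), macrophages (0.88, 0.70), spermatogonia (-0.57, -0.52), spermatocytes (5.43, 5.23), round spermatids (3.20, 3.22) and ductal epithelium (0.60, 0.74). The macrophage mean joined *Mrc1* at 8.87 in controls with *Csf1r* at -1.3, *Adgre1* at -1.65 and *C1qa* at -2.42, near the floor. Over all 10 lists, adjusted exact permutation p-values were 0.628 or higher.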

Additional observations from a re-analysis of the deposited data

Results flagged for a closer look

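In 62 groups of values examined, 2 had a male that stood farther from the others than a Dixon test at the 95% level allows, and chance gives about 1 in 20, or 3.1 here. In MSUS replicate 1, the log2 ratio of *Cldn3* to *F11r* was -1.16, above the next highest MSUS male at -1.37. In Control replicate 9, the mean of the Leydig cell markers was 1.34 log2 CPM, below the next lowest control at 2.54. Without Control replicate 9, none of the 6 tested members passed p under 0.05 in limma voom, beside 550 of 14564 genes. The same held without MSUS replicate 1, beside 775 of 14296 genes.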

How the results depend on the processing

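No member had p under 0.05 under any of 10 other settings or without any 1 library, and *Cldn11* (-0.12 to -0.02) and *Jam3* (0.04 to 0.13) kept their sign throughout. Small log2 fold changes turned sign. *Cldn3* was -0.0108 with quality weights, -0.0055 with library size alone and -0.0525 to 0.0752 without 1 library. *Ocln* was 0.0175 with the elongated spermatid score as covariate and -0.0711 to 0.015 without 1 library. *F11r* was -0.0082 with library size alone and -0.0122 to 0.0419 without 1 library, and *Tjp1* was -0.026 with *Malat1* as covariate. Before adjustment, exact permutation tests passed 0.05 for 0 to 2 members without 1 library, among them *Cldn11* without Control replicate 10 (p = 0.0492).

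Over all genes, 781 with p under 0.05 became 1182 without a count filter, 1203 with the elongated spermatid covariate, 401 with *Malat1* and 534 to 1121 without 1 library. Of the 31 tested genes of the wider list reported here, the number with p under 0.05 was 0 in limma voom, 1 with edgeR (*Arhgef2*), 4 with DESeq2, 4 with the elongated spermatid covariate and 0 to 5 without 1 library (5 without MSUS replicate 11, 3 without Control replicate 10 or MSUS replicate 13). It was 1 with sample quality weights (*Arhgef2*) and 1 with *Malat1* as covariate (*Prkcz*). Without a count filter, 2 of 52 genes of the list had p under 0.05. These were *Cldn4* and *Cldn18*, lower in MSUS, with at most 12 and 3 counts in any library. In the control order, *Tjp1* against *Jam3* was -0.27 with the longest transcript, and *Cldn3* against *Tjp1* was -2.33 without division by length. The 2 pairs that passed by Pearson's r became 1 with library size alone and 1 to 5 without 1 library (5 without Control replicate 14). *F11r* with *Jam3* did not pass in 7 of 13 repeats without 1 library. The causes were not tested.

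No paired analysis was possible because the groups share no replicate numbers in the labels, and litter was not used here. The spread between males, not depth, limits the detected members, while *Cldn5*, *Cldn1* and *Tjp3* lie at the limit of depth.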
